A study of Mus musculus with 8 samples.

Results

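Genes that mark the secretory (club) cells of mouse airways were followed across 8 Illumina mouse beadchips whose labels describe macrophages grown from bone marrow. The set held 6 genes, Scgb1a1, Scgb3a1, Scgb3a2, Cyp2f2, Cbr2 and Wfdc2, and its members were chosen by name after bright signals of airway genes, that of Scgb1a1 among them, had been seen on these arrays. High intensity is therefore a property used in the choice and is given here as a description. Differences between groups were not a criterion, but earlier results of these data were known when the choice was made. Of the 6 genes, 5 had a probe in the probe table used, with 6 probes in all out of 24613 on the chip. Scgb3a2 is not analysed here. All 6 probes passed the filter on dim signals.

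The 4 groups, with 2 arrays each, were IRAK4 KI with acLDL, IRAK4 KI untreated, wild type with acLDL and wild type untreated. KI denotes mice with a knock-in that leaves the kinase IRAK4 catalytically inactive, and acLDL is acetylated low-density lipoprotein, given at 100 ug/ml for 24 hours. All samples came from female mice of the strain labelled 129/BL6, and all marrow cells were cultured for 5 days in medium conditioned by L929 cells. Whether the 2 arrays of a group hold RNA of different cultures or mice is not in the labels. The p-values below therefore speak of array-to-array spread, part or all of which may be technical, and precision is limited by having 8 arrays. Between 11026 and 11033 probes were above noise on each array. These near-equal counts follow from the shared distribution of values on the arrays and do not speak of array quality. Array 2 of KI acLDL and array 2 of wild type acLDL stood apart for Scgb3a1 and for many secreted airway genes, and the differences of Scgb3a1 and of the brightest such genes that use these arrays are given with and without them. Arrays are named by the number in their label, which gives no order.

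Club cells are dome-shaped, non-ciliated cells of the airway lining that secrete a protective fluid and detoxify inhaled chemicals. Secretoglobins are small secreted proteins that form dimers, and Scgb1a1 is the classic product of club cells. Cyp2f2 is a cytochrome P450 that activates naphthalene in mouse club cells, Cbr2 is a carbonyl reductase of mouse lung, and Wfdc2 is a secreted protein with whey acidic protein domains made by airway epithelium. Bone marrow macrophages are not known as a source of these products.

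The promoters of Scgb3a1, the member whose signal varied most between arrays, and of Cyp2f2, the member with the smallest SD, are shown so that the sequences behind a variable and a steady signal can be set side by side. Each runs from 250 bases before to 50 bases after the gene start, 5' to 3' on the strand of the gene, from RefSeq (GRCm38.p6). Scgb3a1 lies on the plus strand at chr11:49663345-49663644 and Cyp2f2 on the plus strand at chr7:27119705-27120004. Capitals mark CAAGTG or its reverse complement CACTTG, a core that the factor NKX2-1 and other NK2 homeodomain factors can bind.
Scgb3a1: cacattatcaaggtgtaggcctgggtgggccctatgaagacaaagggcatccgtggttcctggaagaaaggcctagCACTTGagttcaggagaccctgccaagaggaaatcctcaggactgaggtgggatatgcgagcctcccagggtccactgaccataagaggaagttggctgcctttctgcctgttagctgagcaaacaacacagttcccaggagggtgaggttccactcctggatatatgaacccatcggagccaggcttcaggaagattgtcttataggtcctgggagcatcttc
Cyp2f2: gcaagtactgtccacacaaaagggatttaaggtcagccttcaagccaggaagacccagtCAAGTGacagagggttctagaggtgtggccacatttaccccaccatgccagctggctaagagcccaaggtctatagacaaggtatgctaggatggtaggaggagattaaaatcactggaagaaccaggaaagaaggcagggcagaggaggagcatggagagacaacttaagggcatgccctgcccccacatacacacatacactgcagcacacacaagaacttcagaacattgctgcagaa
Counted from the gene start, the match begins at position -174 of Scgb3a1, as CACTTG, and at position -191 of Cyp2f2, as CAAGTG. It begins at position -217 of Wfdc2 and is not in the 300 bases of Cbr2. Among all 32851 promoters in the table, 13.6% hold CAAGTG on either strand. The letters TGTTTAC, bound by forkhead factors, and TATAAA, the TATA box, were searched on both strands as well and occur in none of these 4 promoters, against 3.65% and 13.6% of all promoters. With a single kind of motif present, no 2 motifs overlapped. A match is a description of the letters and not a measured site.

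Values are intensities in the arbitrary units of the deposited table, which look background-subtracted and quantile normalized. A probe was called above noise where it exceeded 36.7 units, 3 times the noise estimated from values below 0 (their root mean square, 12.2 units). Levels, SDs and differences marked log2 are after a further background correction (limma normexp, offset 16). Quantile normalization gives the probe at a given position of brightness the same value on every array. The probe in position 10 had 34152 units on each array, and this value stood for Scgb1a1 on both untreated wild type arrays, for Cbr2 on KI acLDL array 2 and for Wfdc2 on KI untreated array 1 and wild type acLDL array 2. An SD of 0 between 2 arrays thus means the same position, not a measurement without error.

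Scgb1a1 (GRCm38.p6, chr19:9083642-9087956) had 29146 and 30721 units on the KI acLDL arrays, 29146 and 31470 on the untreated KI arrays, 29823 and 30413 on the wild type acLDL arrays, and 34152 on each untreated wild type array. The 2 untreated wild type arrays were higher than the other 6, which overlapped between their groups. Its position of brightness was between 10 and 16, and its mean log2 intensity was 14.93 ± 0.09 (SD, n = 8).

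Scgb3a1, a secretoglobin of the larger airways, behaved otherwise. The gene lies at chr11:49663595-49665118. Its main probe had 1792 and 478 units on the KI acLDL arrays, 1128 and 1946 on the untreated KI arrays, 1556 and 612 on the wild type acLDL arrays, and 2955 and 2820 on the untreated wild type arrays. Array 2 of each acLDL group was the lowest, and the highest array was 6.18 times the lowest. The mean log2 intensity was 10.51 ± 0.92 (SD, n = 8), against a median SD of 0.17 over all 10187 items tested. The pooled SD within groups was 0.83, against a median of 0.13 over all items, so arrays of the same group also differed widely.

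A second Scgb3a1 probe had 128 and 26.6 units on the KI acLDL arrays, 103 and 192 on the untreated KI arrays, 142 and 43.2 on the wild type acLDL arrays, and 242 and 164 on the untreated wild type arrays. It was above noise on 7 of 8 arrays, the exception being KI acLDL array 2. Both probes had their lowest 2 values on array 2 of the KI acLDL and wild type acLDL groups and their highest on untreated wild type array 1.

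Cyp2f2 (chr7:27119955-27133660) had 15759 and 15400 units on the KI acLDL arrays, 16521 and 17249 on the untreated KI arrays, 15556 and 17249 on the wild type acLDL arrays, and 14500 and 15759 on the untreated wild type arrays. The highest array was 1.19 times the lowest, and the mean log2 intensity was 13.97 ± 0.09 (SD, n = 8). On the 2 arrays where Scgb3a1 was lowest, Cyp2f2 was the lowest but one in KI acLDL and tied for the highest in wild type acLDL.

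Cbr2 (chr11:120729485-120732025) had 37478 and 34152 units on the KI acLDL arrays, 38288 and 43324 on the untreated KI arrays, 39023 and 40289 on the wild type acLDL arrays, and 42212 on each untreated wild type array. The KI acLDL arrays were the lowest of the 8. Its position of brightness was between 3 and 10, and its mean log2 intensity was 15.27 ± 0.11 (SD, n = 8).

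Wfdc2 (chr2:164562715-164568510) had 32663 and 28246 units on the KI acLDL arrays, 34152 and 30721 on the untreated KI arrays, 42212 and 34152 on the wild type acLDL arrays, and 43324 and 36374 on the untreated wild type arrays. The 4 KI arrays lay at or below the 4 wild type arrays, with 1 value shared between the genotypes. The mean log2 intensity was 15.09 ± 0.21 (SD, n = 8), the largest SD of the members other than Scgb3a1. Scgb1a1, Cbr2 and Wfdc2 were among the 17 brightest probes on each of the 8 arrays, where equal steps of position cover unequal steps of intensity. Brightness also depends on the probe and does not order the transcripts of different genes by amount.

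**Figure D1:**
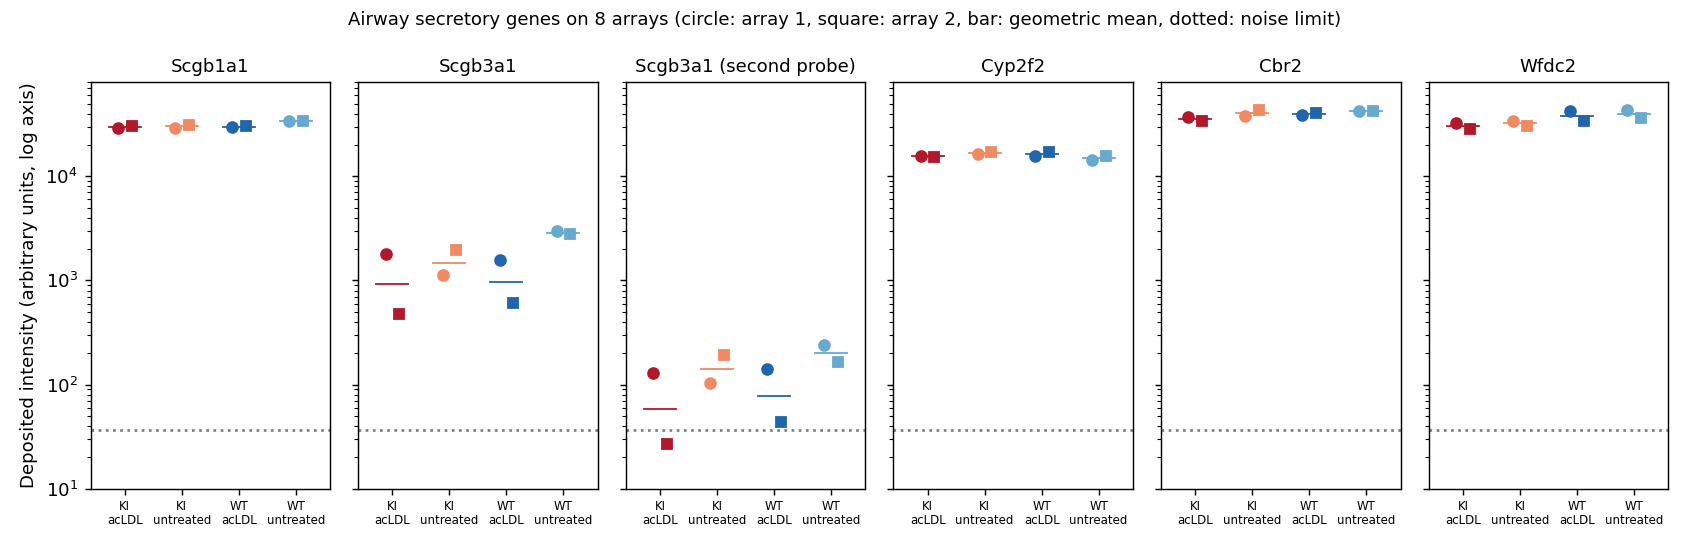
Deposited intensity (log axis) of the 5 measured genes, with Scgb3a1 shown for both probes, by group from left to right KI acLDL, KI untreated, WT (wild type) acLDL and WT untreated. Circles and squares are the arrays labelled 1 and 2, bars are geometric means and the dotted line is the noise limit of 36.7 units. Scgb1a1, Cyp2f2, Cbr2 and Wfdc2 stayed within narrow bands, while Scgb3a1 ranged from 478 to 2955 units and was lowest on array 2 of both acLDL groups.

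Among 1074 items whose mean lay within 0.5 log2 units of that of Scgb3a1, 8 had a larger SD. They were Tff2, Muc5b and Pigr, which encode products of mucosal surfaces, Dbp, a clock output factor, Psmd8, a proteasome subunit, Myl7 and Actc1, which encode proteins of heart muscle, and an unnamed probe. They were picked out by these SDs. Of the items within 0.5 log2 units of the other members, 45.8% of 24 had a lower SD than Scgb1a1, 21.1% of 71 a lower one than Cyp2f2 and 58.8% of 17 a lower one than Cbr2. For Wfdc2 the share was 95% of 20, with 1 item above it.

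**Figure D2:**
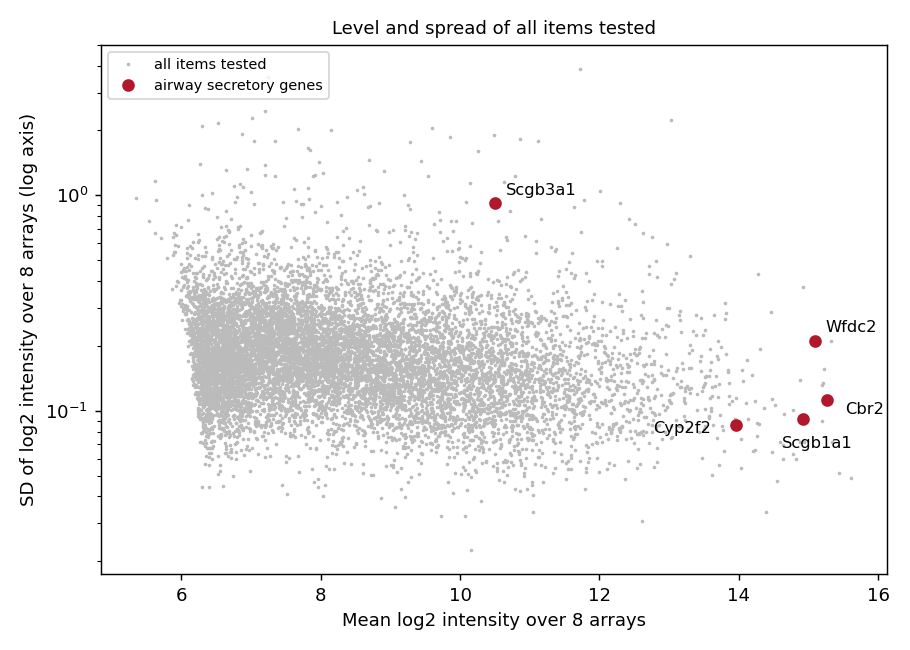
Mean log2 intensity over the 8 arrays (horizontal axis) and SD over the same arrays (vertical, log axis) of the 10187 items tested, with the 5 measured genes in red. Scgb3a1 lies far above the cloud at an SD of 0.92, and the other 4 lie between 0.09 and 0.21 at the bright end.

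Other secreted airway genes were set beside Scgb3a1. A list of 16 such genes had 13 with a probe, and 9 of these were above noise on all 8 arrays. The order of arrays was read first for genes above noise on at least 6 arrays, a limit set with the values in view, which 10 of the 13 met. For 7 of these 10 the lowest 2 arrays were array 2 of KI acLDL and array 2 of wild type acLDL, as for Scgb3a1, compared with 3.39% of 9207 items over the same limit. The 7 were Clca1, Retnla, Tff2, Bpifb1, Muc5b, Chad and Ltf. Hp, Lcn2 and Slpi met the limit without this order. On KI acLDL array 2 Slpi had its highest value, 1280 units, and Lcn2 had 1639 units, against 717 on wild type acLDL array 2. Clca1 met the limit only through the arrays on which it was bright. Ltf was counted on a near tie, 401.7 units on wild type acLDL array 2 against 406.1 on untreated KI array 1. Reg3g, Bpifa1 and Agr2, above noise on 2, 5 and 5 arrays, were left out of this count. With the filter of the fits, above noise on at least 2 arrays, the count was 8 of 13, Reg3g included. It compares with 3.46% of 10187 items. Reg3g met that filter only through the untreated wild type arrays (57.3 and 49.4 units). On array 2 of KI acLDL and of wild type acLDL it had -9.2 and -4.9 units, values within noise. The 2 arrays were singled out from these same genes, so both shares are descriptions and not tests. At the limit of 6 arrays, the same 2 arrays were lowest for 3 of 15 airway epithelial genes (Pigr, Lypd2 and Cldn10), 1 of 14 genes of chemical metabolism and 0 of 15 regulators. The same held for 0 of 6 ciliated cell markers, 0 of 8 alveolar type II markers and 1 of 5 macrophage markers (Adgre1).

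Clca1, a secreted protein of mucus-producing goblet cells, had 16397 and 4.4 units on the KI acLDL arrays, 15400 and 4896 on the untreated KI arrays, 17249 and 0.3 on the wild type acLDL arrays, and 18195 and 19906 on the untreated wild type arrays. On array 2 of each acLDL group it was thus not above noise, and on the other 6 arrays it was among the bright probes. Retnla, a resistin-like secreted protein, had 22823 and 816 units with acLDL and 18776 and 6461 without in KI, and 24686 and 638 with acLDL and 19598 and 30721 without in wild type. Muc5b, a gel-forming mucin of the airways, had 2049 and 112 units with acLDL and 1578 and 1068 without in KI, and 2276 and 302 with acLDL and 2898 and 3601 without in wild type. In all 3 genes untreated KI array 2 came next above the 2 acLDL arrays numbered 2, whereas for Scgb3a1 it was the highest KI array. Bpifb1, a secreted protein of the BPI fold family and the fourth brightest measured gene of the list, ranged from 191 to 7128 units. Hp, which encodes haptoglobin, ranged only from 15244 to 19598 units.

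**Figure D3:**
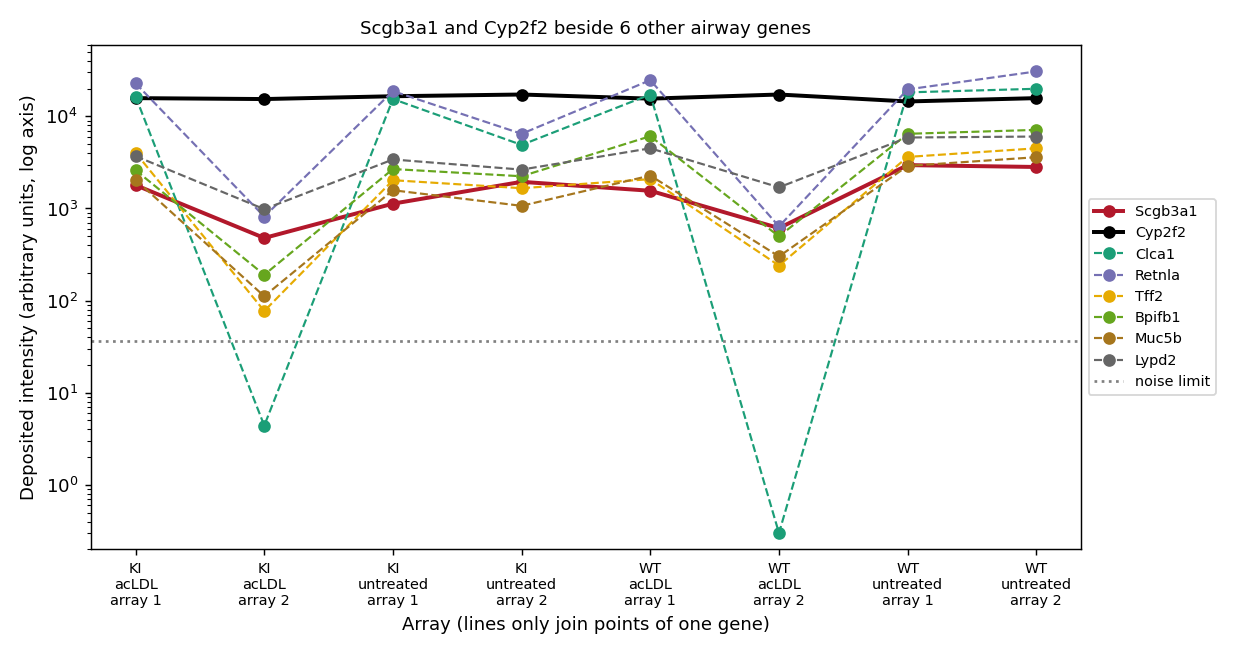
Deposited intensity (log axis) on each of the 8 arrays for Scgb3a1 and Cyp2f2 (thick solid lines) and 6 other airway genes (dashed), with the noise limit dotted. Lines only join the points of a gene. Scgb3a1 and the 6 dashed genes dip on array 2 of both acLDL groups, Clca1 to 4.4 and 0.3 units, while Cyp2f2 stays between 14500 and 17249 units. The dashed genes were picked with values in view. Chad and Ltf, which also dip, and Hp, Lcn2 and Slpi, which do not dip on both arrays, are not drawn.

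Sums over marker lists were set beside this. The 13 measured secreted airway genes summed to 22073 to 66784 units on the KI acLDL arrays, 39982 to 60996 on the untreated KI arrays, 23689 to 74246 on the wild type acLDL arrays and 71368 to 87168 on the untreated wild type arrays. The measured members themselves summed to 109000 to 116840 units in KI acLDL, 119240 to 124710 in untreated KI, 122710 to 128170 in wild type acLDL and 131320 to 137140 in untreated wild type. Ciliated cell markers, 6 of 8 above noise on all arrays, summed to 4537 to 5876 units in KI acLDL, 6450 to 6812 in untreated KI, 7163 to 7872 in wild type acLDL and 8299 to 9842 in untreated wild type. Foxj1, the master regulator of motile cilia, was above noise on 3 of 8 arrays and the dynein gene Dnah5 on 0. Alveolar type II markers, 8 of 8 above noise on all arrays, summed to 88948 to 97180, 93983 to 97746, 99009 to 104140 and 89800 to 101220 units in the same order of groups, and overlapped between all groups but wild type acLDL and both KI groups. Of 4 basal cell markers 0 passed the noise limit on each array, and Krt5 and Ngfr were above it on none. These sums mainly follow the brightest genes of each list and are not a reading of the whole list or of a cell type. On wild type acLDL array 2, Hp alone had 19598 of the 23689 units of the secreted genes. Cbr2, Wfdc2 and Scgb1a1 were the brightest members, Dynlrb2 the brightest ciliated marker, and Sftpc and Sftpd the brightest type II markers. In RNA of a whole sample, fewer cells of a type and less RNA per cell cannot be told apart, and the part of cell composition in these values was not tested.

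The label of bone marrow macrophages was checked against 10 macrophage markers. Of 8 with a probe, 4 were above noise on all 8 arrays, among them Lyz2 and Adgre1, a share of the list near the 46.6% of all 15967 named genes with a probe. Itgam, Fcgr1 and Msr1, 3 in number, were above it on no array, as were 42.9% of all named genes. The sums of the list ranged from 22718 to 33957 units in KI acLDL, 24678 to 27236 in untreated KI, 17615 to 21512 in wild type acLDL and 21919 to 23315 in untreated wild type. Lyz2, with 16521 to 32663 units over the 8 arrays, made up most of each sum. The sums therefore mainly follow Lyz2 and are not a reading of macrophage content. The list as a whole was thus detected about as often as genes in general. The lack of signal from 3 probes is not a reading of the cells. Of the alveolar type I markers, Hopx was likewise above noise on no array, while Ager had 22823 to 25146 units. The groups below stand for the labels of the arrays.

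Effects of acLDL were tested over the whole chip with limma, all 8 arrays in a fit of 4 group means, and Benjamini-Hochberg adjustment over 10187 items. The comparisons share arrays and are not independent. Whether arrays of 2 groups overlap is given only as a description. With 2 arrays a group, full separation is frequent without any effect, and its share over all items was not counted. In wild type, 0 of the 5 members passed an adjusted p of 0.05, against 0.177% of all items, and 1, Scgb3a1, had an unadjusted p below 0.05. The log2 difference of Scgb3a1 was -1.52 (SE 0.60, 95% interval -2.91 to -0.13, limma adjusted p = 0.38), with both acLDL arrays below both untreated ones. Without wild type acLDL array 2 it was -0.87 (limma adjusted p = 0.708, or 0.489 with KI acLDL array 2 left out as well) and without array 1 of that group -2.16 (limma adjusted p = 0.307). The second probe, in a fit of every probe, had -0.94 (SE 0.48, limma adjusted p = 0.518), and -0.39 without both acLDL arrays numbered 2 (SE 0.32, limma adjusted p = 0.755).

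The other members differed less in wild type. Scgb1a1 was 0.88-fold with acLDL relative to untreated (95% interval 0.75 to 1.04, limma adjusted p = 0.53), and its 2 acLDL arrays lay below the 2 untreated ones. Cyp2f2 was 1.08-fold (0.91 to 1.29), Cbr2 0.94-fold (0.79 to 1.12) and Wfdc2 0.96-fold (0.75 to 1.22), with limma adjusted p from 0.71 to 0.906. For these 4 genes the intervals leave out a change of 1.5-fold in either direction.

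In KI, 0 of 5 members passed, against 0.0196% of all items, and 0 had an unadjusted p below 0.05. Scgb3a1 had a log2 difference of -0.64 (SE 0.60, 95% interval -2.03 to 0.75, limma adjusted p = 0.862) between acLDL and untreated arrays that overlapped. This value turned to 0.27 without KI acLDL array 2 (limma adjusted p = 1, or 0.999 without both acLDL arrays numbered 2) and was -1.55 without array 1 of that group (limma adjusted p = 0.611). The log2 differences of the other members were -0.02 for Scgb1a1 (95% interval -0.25 to 0.21), -0.12 for Cyp2f2 (-0.36 to 0.13), -0.19 for Cbr2 (-0.44 to 0.07) and -0.09 for Wfdc2 (-0.44 to 0.26). The acLDL effects of the 2 genotypes did not differ past the threshold for any of the 5 members, against 0.0491% of all items called, and 0 had an unadjusted p below 0.05. The difference of effects, KI minus wild type, was 0.88 for Scgb3a1 (SE 0.85, 95% interval -1.09 to 2.84, limma adjusted p = 0.797). It was 1.14 without both acLDL arrays numbered 2 (limma adjusted p = 0.822). Leaving out 1 array gave -0.0318 without KI acLDL array 1, 1.78 without KI acLDL array 2, 1.52 without wild type acLDL array 1, 0.23 without wild type acLDL array 2 and 0.49 without untreated KI array 1.

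**Figure D4:**
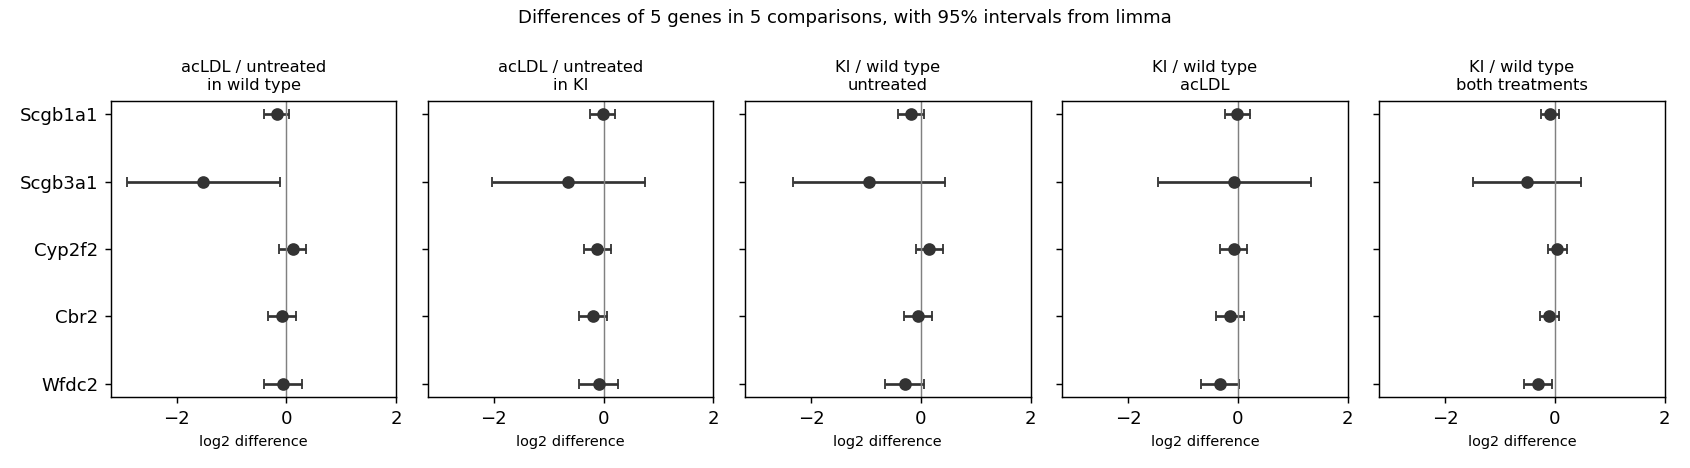
Log2 differences (points) with 95% intervals from limma (bars) for 5 genes in 5 comparisons, each named as first over second condition. The intervals of Scgb3a1 are the widest of the 5 genes in each comparison, and those of the other 4 genes lie between -0.67 and 0.41.

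Genotypes were compared next, again with the overlap of arrays given only as a description. As above, full separation of 2 against 2 arrays is frequent without any effect, and its share over all items was not counted. Between untreated arrays 0 of 5 members passed, against 0.00982% of all items, and 0 had an unadjusted p below 0.05. Scgb3a1 had a log2 difference of -0.94 for KI relative to wild type (SE 0.60, 95% interval -2.33 to 0.45, limma adjusted p = 0.484), with both KI arrays below both wild type ones. Without untreated KI array 1 it was -0.56 (limma adjusted p = 0.772) and without untreated KI array 2 it was -1.32 (limma adjusted p = 0.685). Log2 differences of the other members were -0.17 for Scgb1a1 (SE 0.10), -0.29 for Wfdc2 (SE 0.15), 0.16 for Cyp2f2 (SE 0.11) and -0.05 for Cbr2 (SE 0.11). Their limma adjusted p ran from 0.399 to 0.855. Between acLDL arrays 0 of 5 passed, against 0.216% of all items, and 0 had an unadjusted p below 0.05. Scgb3a1 had a log2 difference of -0.07 there (SE 0.60, limma adjusted p = 0.958), with overlapping arrays, which was 0.58 without wild type acLDL array 1, 0.84 without KI acLDL array 2, -0.71 without wild type acLDL array 2, -0.97 without KI acLDL array 1 and 0.20 without both acLDL arrays numbered 2. Wfdc2 had -0.32 (SE 0.15, limma adjusted p = 0.261) and Cbr2 -0.15 (SE 0.11, limma adjusted p = 0.455). Scgb1a1 had -0.01 (SE 0.10) and Cyp2f2 -0.07 (SE 0.11).

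Averaged over both treatments, 0 of 5 members differed between KI and wild type, against 3.39% of all items, and 1, Wfdc2, had an unadjusted p below 0.05. Wfdc2 was 0.81-fold in KI relative to wild type (log2 difference -0.31, SE 0.11, 95% interval -0.56 to -0.06, limma adjusted p = 0.123). Its adjusted p lay between 0.0613 and 0.312 over 18 alternatives, the lowest with the replicate number as a block. Scgb3a1 had a log2 difference of -0.50 (SE 0.42), which was -0.05 without KI acLDL array 2, -0.96 without KI acLDL array 1, -0.18 without wild type acLDL array 1, -0.82 without wild type acLDL array 2, -0.31 without untreated KI array 1 and -0.37 without both acLDL arrays numbered 2. Scgb1a1, Cyp2f2 and Cbr2 differed by -0.09, 0.04 and -0.10 on the log2 scale (SE 0.07, 0.08 and 0.08).

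Other genes of the airway lining were read from the same fits. Of the 13 secreted genes tested 0 passed in any of the 6 comparisons, and the smallest adjusted p was 0.271 (limma). Without both acLDL arrays numbered 2 the count was again 0 of 13 in each comparison, with a smallest adjusted p of 0.0642 (limma, Bpifb1 averaged over treatments). Retnla had a log2 difference of -2.58 with acLDL in wild type (SE 1.82) and -1.32 in KI (SE 1.82), and without both arrays 0.0086 (SE 0.61) and 1.05 (SE 0.61). Clca1, not above noise on these 2 arrays, had -4.44 in wild type and -3.29 in KI (SE 3.06 each). Without both arrays Clca1 had -0.14 and 0.91. Bpifb1 had -1.91 in wild type (SE 1.25) and -1.66 in KI (SE 1.25), and without both arrays -0.16 (SE 0.17) and 0.09 (SE 0.17). Between genotypes Bpifb1 had a log2 difference of -1.45 untreated (SE 1.25) and -1.21 with acLDL (SE 1.25). With acLDL it was -1.21 also without both arrays. Leaving out both leaves 1 array in each acLDL group, so no spread within an acLDL group enters the SEs given without them. The arrays were left out after such genes were seen low on them, so the smaller SEs of Retnla and Bpifb1 follow from that choice. Hp, whose arrays varied little, had 0.24 with acLDL in wild type (SE 0.12) and -0.18 in KI (SE 0.12), and without both arrays 0.14 and -0.26 (SE 0.14 each).

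Genes of chemical metabolism, the role of Cyp2f2 and Cbr2, varied to different degrees. Of 18 listed, 14 had a probe, all 14 were above noise on all 8 arrays and 0 passed in any comparison (smallest limma adjusted p 0.148). Their SDs over the 8 arrays ran from 0.06 to 0.37 with a median of 0.13, and 3 of the 14 exceeded the median of 0.17 over all items. These were Aldh3a1, an aldehyde dehydrogenase, with 450 to 1017 units, Fmo2, a flavin monooxygenase of the lung, with 59.9 to 113.8 units, and Aox3, an aldehyde oxidase, with 1847 to 2729 units. The median log2 difference of the 14 was 0.0051 with acLDL in wild type and -0.01 in KI. The 4 with the highest mean signal were Ces1d, a carboxylesterase, at a log2 intensity of 14.63 ± 0.06, Gstm2 and Gsta3, glutathione transferases, at 13.29 ± 0.16 and 13.02 ± 0.12, and Selenbp1, a selenium-binding protein, at 12.55 ± 0.12 (SD, n = 8). Cyp2b10, another P450 of the lung, lay at 11.74 ± 0.16 (SD, n = 8).

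Of 18 regulators, 14 were above noise on each array. Spdef, Creb3l1 and Notch2 were above it on no array. Nkx2-1, the transcription factor that specifies lung epithelium, ranged from 1348 to 1851 units, and the forkhead factors Foxa1 and Foxa2 from 836 to 1112 and from 237 to 345 units. Notch1, Klf5 and Hes1, with Nkx2-1 the brightest of the list, had SDs of 0.15, 0.11 and 0.25 on the log2 scale (n = 8). Elf3, an epithelial ETS factor, was the only regulator called in any of the 6 comparisons. In KI it was lower, with treatments averaged (log2 difference -0.44, SE 0.09, limma adjusted p = 0.0462), with 58.5 to 68.9 units on the 4 KI arrays and 91.6 to 122.6 on the 4 wild type arrays.

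Of 20 epithelial genes, 18 had a probe and 15 were above noise on all arrays, and Epcam, Krt15 and Upk3a were above it on none. Krt7, a keratin of simple epithelia, Cldn18, a lung tight junction claudin, Muc1, a membrane mucin, and Lypd2, a membrane-anchored protein of the Ly6 family, had the highest means, at log2 intensities of 13.72 ± 0.13, 12.59 ± 0.11, 12.17 ± 0.08 and 11.63 ± 0.89 (SD, n = 8). Krt18, the partner keratin of Krt8, was the only member of the list called. It was lower in KI averaged over treatments (log2 difference -0.53, SE 0.10, limma adjusted p = 0.0457), with 610 to 805 units on the 4 KI arrays and 878 to 1140 on the 4 wild type arrays. The counts were thus 1 of 15 regulators and 1 of 15 epithelial genes, and 0 of 13 and 0 of 14 in the other lists, beside 3.39% of all items. Ccdc113, a gene of motile cilia and 1 of 7 ciliated cell markers tested, was lower too (log2 difference -0.55, SE 0.10, limma adjusted p = 0.0443). The calls of Krt18 and Ccdc113 were lost in 10 of 18 alternatives and that of Elf3 in 11, including the loss of any single array other than wild type acLDL array 2 (limma adjusted p from 0.0614 to 0.149).

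Relatives of the members by name were mostly dark among secretoglobins and Cyp2 genes, but not among Wfdc genes and carbonyl reductases. For comparison, 42.9% of all 15967 named genes with a probe exceeded the noise limit on no array and 46.6% on every array. Of 9 secretoglobin genes with a probe, Scgb1a1 and Scgb3a1 were above noise on all 8 arrays and the other 7 on none. Of 11 Wfdc genes, Wfdc1, Wfdc2, Wfdc16 and Wfdc21 were above noise on each array and 5 others on no array, with Wfdc1 between 721 and 942 units and Wfdc16 between 56.7 and 88.1. Of 33 genes of the Cyp2 group, 8 passed the noise limit on each array and 24 on no array. All 4 carbonyl reductases were above noise on all arrays, Cbr1 between 537 and 625 units, Cbr3 between 232 and 328 and Cbr4 between 113 and 185.

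Likeness to each member was measured as Pearson's r of log2 intensity over the 8 arrays, among 7446 named genes above noise on all of them, and is given as a description of genes picked for a high r, with no p. The 3 most like Scgb1a1 were Mul1 (0.96), Capg (0.94) and Ess2 (0.92), and those most like Scgb3a1 were Rpl11 (0.96), Tns4 (0.96) and Unc93b1 (0.94). Cyp2f2 was nearest to Nudc (0.95), Luzp1 (0.94) and Pard6a (0.94), Cbr2 to Puf60 (0.94), Slc37a1 (0.94) and Calml3 (0.93), and Wfdc2 to Zfp1 (0.99), Aars (0.98) and Plekhm2 (0.98). With group means subtracted the nearest were Bmp3 for Scgb1a1, Rpl11 for Scgb3a1, B9d1 for Cyp2f2, Tmco6 for Cbr2 and Ss18l2 for Wfdc2, at r between 0.99 and 1.00. No member was among the 3 nearest of another. Rpl11, a ribosomal protein, varied with an SD of 0.07 on the log2 scale, far less than Scgb3a1. Subtracting group means leaves 4 independent values a gene.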

How the data were processed

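Total RNA of 8 samples was hybridised, 1 sample per array, to chips labelled mouseRef-8 v2. The deposited intensity values came from BeadStudio, per the submitters' processing notes (version not given in the sources used here). Negative entries make up 29.2% of the table, columns put in order agree to 1.4 units, and their medians are 23.7 or 23.8, so background subtraction and quantile normalization are inferred from the values. A second table has 16 columns of signals and detection p-values whose headings match no sample label, and it was not used. Symbols came from the probe table supplied, which is that of another platform version (20984 probes with 1 symbol, 1 with several, 3628 with none; 20968 entries matched by gene number), so names rest on probe identifiers meaning the same on both.

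Intensities were corrected with normexp (offset 16) and log2 transformed. Probes above noise (36.7 units) on at least 2 arrays were kept, 11819, and the probe of highest mean stood for a gene, giving 10187 items. limma (version 3.58.1, R 4.3.3) fitted 4 group means, with 4 residual degrees of freedom, and 6 comparisons at an adjusted p threshold of 0.05. The offset compresses differences of dim probes. The procedure was tested on simulated data, 5 sets with 200 items changed in wild type acLDL. Of 1.5-fold changes 36.7% were called and of 2-fold changes 93.7%, with 7.6 other calls per set. The simulated noise was independent between items and held no effect shared by the items of an array.

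The members, lists and comparisons were chosen with earlier results of these data known. From each list the text names members past the threshold and the 4 of highest mean; for each member it names the 3 genes of highest r; other names were picked with values in view. Alternatives were no filter or a filter on all 8 arrays, each probe alone, an offset of 50, no correction (with a floor of 1), cyclic loess, median centring, the replicate number as a block, an intensity trend in the variance, fits of single comparisons, leaving out each array, and, chosen after seeing the data, leaving out both acLDL arrays numbered 2. Slide and scan are unknown, so neither was tested as a batch. Plots were drawn with matplotlib 3.10.9.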

Additional observations from a re-analysis of the deposited data

How the results depend on the processing

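The count of members called was 0 in each comparison under every alternative run for it. Fits of single comparisons do not give the averaged genotype difference or the difference of effects. Of 560 recomputed differences of members, 536 kept their direction and 24 turned, none of them past the threshold in either setting. With cyclic loess the acLDL effect on Scgb1a1 in KI was 0.0065 and its genotype difference with acLDL 0.0022. Without both acLDL arrays numbered 2 the acLDL effects of Wfdc2 were 0.0885 in wild type and 0.0121 in KI, that of Scgb3a1 in KI was 0.27, and the genotype differences with acLDL were 0.20 for Scgb3a1 and 0.0187 for Cyp2f2. Leaving out single arrays moved the acLDL effect in wild type from -0.22 to 0.0885 for Wfdc2, that in KI from -0.0726 to 0.0379 for Scgb1a1, from -1.55 to 0.27 for Scgb3a1 and from -0.20 to 0.0121 for Wfdc2. It moved the untreated genotype difference of Cbr2 from -0.14 to 0.0375, the genotype difference with acLDL from -0.0472 to 0.0286 for Scgb1a1, from -0.97 to 0.84 for Scgb3a1 and from -0.15 to 0.0021 for Cyp2f2, and the difference of effects from -0.0318 to 1.78 for Scgb3a1 and from -0.18 to 0.12 for Wfdc2. Each lone array was then assumed to vary like the other groups. The cause of these turns was not tested.

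Counts over all items were less stable. The 18 calls for acLDL in wild type became 3 to 24 over the other alternatives and 1 to 30 on leaving out an array, and the 2 in KI 0 to 3 and 0 to 6. The 22 genotype calls with acLDL became 0 to 61 and 2 to 15, the 345 averaged over treatments 1 (without both acLDL arrays numbered 2) to 705 (variance trend) and 0 (without KI untreated array 1 or KI acLDL array 2) to 598 (without wild type acLDL array 2), the 1 untreated 0 to 1 in both, and the 5 for the difference of effects 0 to 6 and 1 to 4. The replicate number as a block gave 0 members called in each comparison, 413 items for the averaged genotype difference and an adjusted p of 0.0515 for Elf3. Arrays of the same number in different groups deviated from their group means with correlations from -0.31 to 0.29, so the numbers were not taken to pair the samples. Bright members lie far above noise, and the second Scgb3a1 probe is limited by it.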
